A study of Mus musculus with 6 samples.

Results

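The genes described here are 10 members of the hypoxia-inducible factor (HIF) system, taken by symbol from the deposited table of read counts for 43430 Ensembl gene IDs: the subunits Hif1a, Epas1 and Arnt, the prolyl hydroxylases Egln1, Egln2 and Egln3, and the target genes Adm, Bnip3, Ndrg1 and Ankrd37. All 10 were in the table, and 8 of them were among the 13005 genes with enough counts to be tested, while Egln3 and Ankrd37 were not. Flow cytometry for the receptor PDGFRA had isolated the fibroblasts from lungs of C57BL/6J mice, all male and 9 to 11 weeks old. The hypercapnia mice had breathed 10% CO2 in normoxia for 10 days (hypercapnia, 3 libraries called M4, M5 and M6), and the controls had stayed in room air (3 libraries called M1, M2 and M3). The labels name no transgene or drug in either group. Each library was a pool of cells from 3 mice, 9 mice per group, so the spread between libraries is a spread between pools. The sample labels name the sorted receptor as PDGFRa in room air and as PDGFR in hypercapnia.

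HIF is a heterodimer of an oxygen-regulated alpha subunit, HIF1A or EPAS1 (also called HIF2A), and the constitutive subunit ARNT. At normal oxygen the prolyl hydroxylases encoded by the Egln genes mark the alpha subunit, which the VHL ubiquitin ligase then sends for degradation. At low oxygen the alpha subunit accumulates and the dimer binds short DNA elements with the core ACGTG or GCGTG near its target genes. This control acts mainly on the alpha proteins, so an mRNA level of Hif1a or Epas1 is not a level of HIF activity, and the transcripts of target genes are the usual readout in RNA data.

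The core letters were looked for in the promoters of the members, because a target gene that moved and those that did not can then be seen beside each other. RefSeq promoter windows (build GRCm38.p6) of 300 bases, 250 before and 50 after an annotated start, were matched for 8 members with 9 promoters, but not for Epas1 and Ndrg1. ACGTG or GCGTG on either strand was found in 9 of the 9, where 43.8% of 32851 promoter windows hold one. ACGTG was in 6 of the 9 (19.6% of all windows) and GCGTG in 7 (32.4%). CACGTG, the E-box that clock factors bind and that contains ACGTG on each strand, was in 3 (7.15%), those of Hif1a and Bnip3 and 1 of the Egln2 promoters. A match describes letters in a window and shows no binding. Below, capitals mark ACGTG or GCGTG on either strand, for the target that fell (Adm), a target that did not pass the test (Bnip3) and the subunits Arnt and Hif1a, each written along the gene's own strand. Adm, chr7:110627407-110627706, plus strand, holds GCGTG on the opposite strand 54 and 90 bases before the start. Bnip3, chr7:138909457-138909756, minus strand, holds 5 matches. Arnt, chr3:95434140-95434439, plus strand, holds GCGTG 29 bases before the start. Hif1a, chr12:73907617-73907916, plus strand, holds ACGTG 70 bases before the start and the E-box 135 bases before it.
Adm promoter: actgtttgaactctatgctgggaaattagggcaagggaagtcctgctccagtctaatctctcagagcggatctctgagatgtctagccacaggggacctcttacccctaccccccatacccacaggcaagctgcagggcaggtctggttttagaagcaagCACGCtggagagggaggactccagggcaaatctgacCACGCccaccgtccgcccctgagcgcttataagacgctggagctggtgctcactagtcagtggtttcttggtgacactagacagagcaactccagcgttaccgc
Bnip3 promoter: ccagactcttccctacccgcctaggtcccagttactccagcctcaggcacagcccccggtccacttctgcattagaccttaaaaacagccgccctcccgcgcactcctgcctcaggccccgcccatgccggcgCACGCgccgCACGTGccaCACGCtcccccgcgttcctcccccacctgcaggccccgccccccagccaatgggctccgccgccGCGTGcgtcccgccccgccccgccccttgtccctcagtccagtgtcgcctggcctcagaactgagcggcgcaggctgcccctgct
Arnt promoter: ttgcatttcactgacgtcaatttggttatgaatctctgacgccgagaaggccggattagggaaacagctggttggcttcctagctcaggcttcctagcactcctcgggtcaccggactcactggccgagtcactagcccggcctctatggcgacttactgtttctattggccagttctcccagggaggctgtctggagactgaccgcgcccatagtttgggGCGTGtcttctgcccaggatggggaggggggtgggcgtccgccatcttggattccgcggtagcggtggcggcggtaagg
Hif1a promoter: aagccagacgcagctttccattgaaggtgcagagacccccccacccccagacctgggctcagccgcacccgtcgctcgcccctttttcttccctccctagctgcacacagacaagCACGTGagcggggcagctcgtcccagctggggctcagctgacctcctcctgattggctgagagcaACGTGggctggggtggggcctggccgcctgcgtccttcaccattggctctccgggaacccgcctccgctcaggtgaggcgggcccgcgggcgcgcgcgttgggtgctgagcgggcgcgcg

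The libraries held between 8999780 and 10198336 counts, at which 3 counts correspond to 0.281 to 0.354 CPM (CPM being counts set to a common library size with TMM factors). Each total is above the average number of aligned reads per sample that the labels give, and the sources used here do not say how a count relates to a read, so the floor is one of counts. Fibroblast markers were high in every library, with Pdgfra at 2971 ± 419 CPM in hypercapnia and 3562 ± 209 CPM in room air (SD, n = 3 each) and Col1a1 at 4942 ± 479 and 5078 ± 285 CPM. Of 8 fibroblast markers Npnt fell (log2 fold change -0.44 ± 0.09, edgeR adjusted p = 0.0474) and 7 did not pass, where 1.22% of all tested genes were called. At an unadjusted edgeR p under 0.05 there were 3 of 8, all lower (37.5%, against 12.0% of all genes). These were Npnt, Tcf21 (-0.44 ± 0.11) and Pdgfra (-0.26 ± 0.11). RNA of other cell types was present too. The 11 epithelial markers, all tested and none called, summed to 393 to 516 CPM in hypercapnia and 426 to 700 CPM in room air. Most of this was Scgb1a1, a club cell secretory gene, at 126 to 301 and 275 to 489 CPM, and Sftpc, a surfactant gene, at 67.0 to 189 and 49.0 to 125 CPM, while Epcam had 0 to 12 and 1 to 19 counts. The 10 immune markers summed to 25.1 to 61.6 CPM in hypercapnia and 11.9 to 56.1 CPM in room air, mostly from Lyz2, a myeloid lysozyme gene, at 21.3 to 58.7 and 10.1 to 50.8 CPM. Of the immune markers, 3 (Adgre1, Cd3e and S100a8) had 0 counts throughout, and Ptprc had 0 counts in every hypercapnia library and 2, 0 and 0 counts in room air. Endothelial transcripts were present in all libraries and stood lowest in M3. The 18 endothelial markers summed to 4434, 3438 and 2679 CPM in M4, M5 and M6, against 2773, 2321 and 720 CPM in M1, M2 and M3. Immediate early and stress genes, which respond to tissue dissociation, also differed between libraries, with sums over 14 genes of 28469, 4621 and 9129 CPM in M4, M5 and M6, against 32143, 18738 and 12400 CPM in M1, M2 and M3.

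Whether 10 days of high CO2 altered transcripts of the HIF system was read from hypercapnia against room air libraries. Of the 8 tested members, Adm fell, none rose and 7 did not pass the test. Arnt, with higher values in every hypercapnia library, lay just outside the threshold. Epas1 had a log2 fold change of 0.72 ± 0.35, with groups that overlapped, and did not pass. The oxygen-regulated subunit gene Hif1a, the hydroxylase genes Egln1 and Egln2 and the targets Bnip3 and Ndrg1 had log2 fold changes between -0.26 and 0.08. By edgeR's quasi-likelihood test with an adjusted p under 0.05 over all genes, 1 of 8 tested members was called, where 1.22% of all tested genes were called in either direction and 0.700% as lower. At an unadjusted p under 0.05 there were 2 of 8 (Adm lower and Arnt higher), against 12.0% of all genes. The median log2 fold change was -0.09 over the 8 members and 0.01 over all tested genes. The groups did not overlap for 3 of 8 members, against 18.0% of all genes. Of these Arnt was higher, as were 9.28% of all genes, and Adm and Bnip3 were lower, as were 8.74%. DESeq2 and limma-voom each called Adm lower and Arnt higher.

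**Figure D1:**
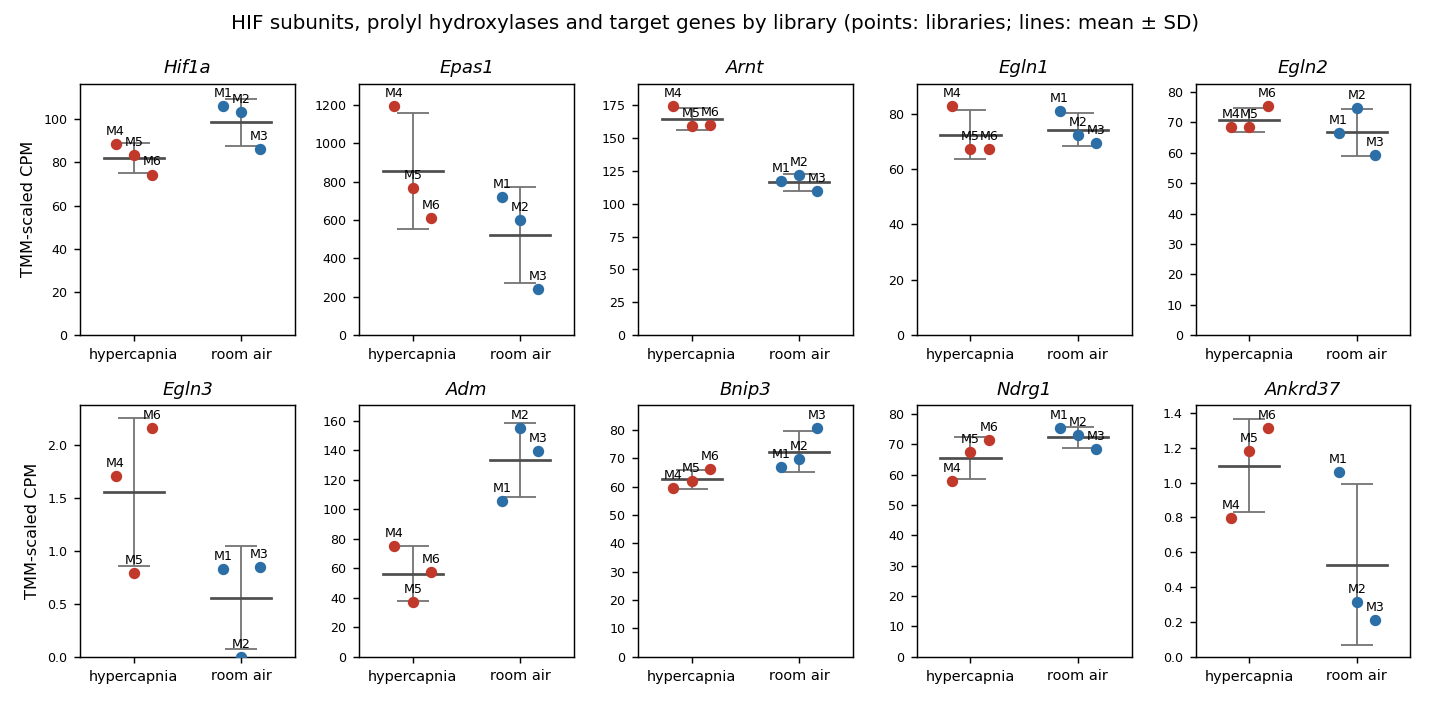
Levels of the 10 members in TMM-scaled CPM (vertical axes, each from 0) in the hypercapnia libraries M4 to M6 and the room air libraries M1 to M3; points are libraries, the wide line is the mean and the bar the SD. Adm is lower and Arnt higher in every hypercapnia library than in every room air library, and Epas1 is lowest in M3 at 240 CPM.

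Set per kilobase of annotated exon, so that genes can be compared, the members spanned more than 2 orders of magnitude. Epas1 had the highest level in both groups, at 153 ± 53.9 CPM per kilobase in hypercapnia and 93.1 ± 44.7 in room air (SD, n = 3 each). Adm came next, at 34.9 ± 11.7 and 82.4 ± 15.6 CPM per kilobase, although in hypercapnia its libraries overlapped those of Bnip3 (26.3 to 29.3). In room air the libraries of Epas1 and Adm overlapped, with ranges of 43.0 to 129 and 65.1 to 95.7 CPM per kilobase, while in hypercapnia Epas1 (109 to 213) lay above Adm (22.9 to 46.2) throughout. Bnip3, Egln2, Egln1, Arnt and Hif1a followed with means between 13.9 and 27.6 CPM per kilobase in hypercapnia and between 14.5 and 31.9 in room air. Among these the neighbours Bnip3 and Egln2, and Arnt and Egln1, overlapped in hypercapnia, and Egln2 and Egln1, and Hif1a and Arnt, overlapped in room air. Ndrg1 stood at 9.94 ± 1.04 and 11.0 ± 0.538 CPM per kilobase. Ankrd37 and Egln3 were far below all others at under 1 CPM per kilobase in every library, and their ranges overlapped in both groups.

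**Figure D2:**
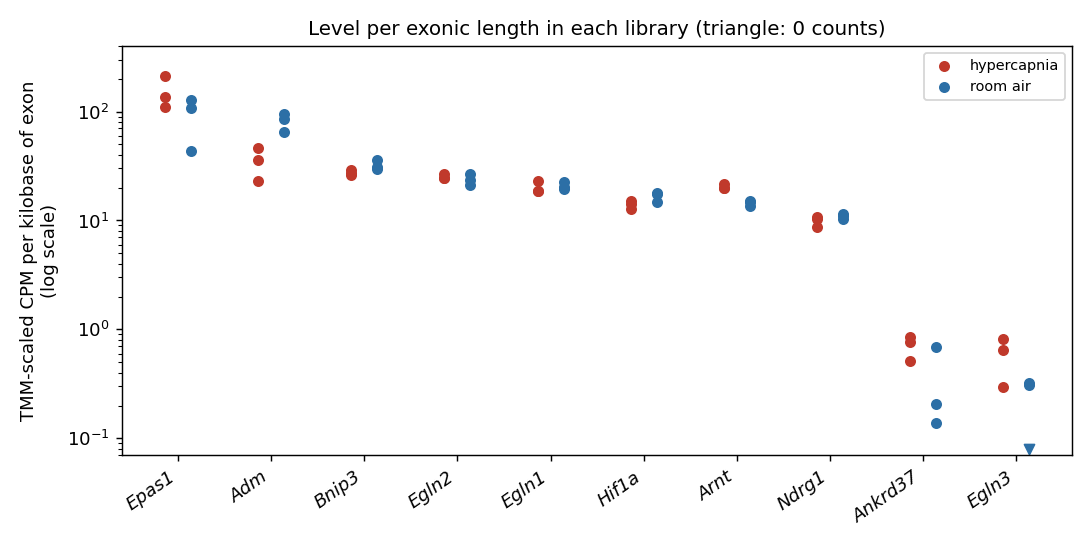
TMM-scaled CPM per kilobase of annotated exon on a log scale for each member, with hypercapnia libraries to the left of room air libraries; each point is a library and a triangle marks 0 counts. Epas1 leads at 43.0 to 213 CPM per kilobase, 7 members lie between 8.79 and 95.7, and Ankrd37 and Egln3 stay under 1.

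Adm encodes adrenomedullin, a secreted vasodilator peptide that protects endothelial barriers and is a standard HIF target. Its gene, ENSMUSG00000030790, lies on chromosome 7 from 110627661 to 110629820 on the plus strand of mm10, and none of its exonic bases are shared with another gene model. Adm stood at 74.9, 37.0 and 57.6 CPM in hypercapnia (M4, M5 and M6), against 105, 155 and 140 CPM in room air (M1, M2 and M3). The highest hypercapnia library was below the lowest room air library, and all 6 libraries held between 376 and 1474 counts of the gene. The means were 56.5 ± 19.0 and 133 ± 25.3 CPM (SD, n = 3 each), a log2 fold change of -1.24 ± 0.23 (SE) or a ratio of 0.423, with a 95% interval of 0.298 to 0.601 and an edgeR adjusted p of 0.0329. In bulk samples, fewer Adm-expressing cells and less Adm RNA per cell cannot be told apart. The fall was called in 11 of 15 other settings, with log2 fold changes from -1.49 to -1.01 and adjusted p-values from 1.56e-15 to 0.201. The smallest came from the fit without a filter, where the SE takes little account of a gene's own spread. The call was lost without M2 (adjusted p = 0.201), M5 (0.0963) or M6 (0.134), and with robust dispersion (0.101).

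Library M5, with the lowest Adm, also had the lowest summed level of immediate early genes, and M4, with the highest Adm of its group, had the highest of its group. In room air the order was different, since M1 had the highest immediate early sum and the lowest Adm. Markers of the mesothelium, the cell layer that covers the lung, were read too. The 5 mesothelial markers summed to 200, 127 and 174 CPM in M4, M5 and M6, against 226, 226 and 274 CPM in M1, M2 and M3, and most of each sum was Upk1b. Of the 4 tested, Upk1b fell (log2 fold change -0.73 ± 0.13, edgeR adjusted p = 0.0317), while Msln, Upk3b and Lrrn4 had positive log2 fold changes of 0.65 to 1.01 and did not pass, and Wt1 was too low to test. Their part in the Adm result was not tested. With the mean log2 level of the immediate early genes as a covariate, added after seeing the data, the log2 fold change of Adm was -1.12 ± 0.20 (edgeR adjusted p = 0.0192). With endothelial marker level as the covariate it was -1.21 ± 0.27 (adjusted p = 0.0455). The tested genes whose pattern over the 6 libraries came closest to that of Adm were Clmp, Eln and Pdzd7, by the root mean square difference of centred log2 CPM (0.19, 0.21 and 0.21) among 10757 genes averaging 5 CPM or more. Eln encodes elastin and Clmp a cell adhesion protein. Clmp, Eln and Pdzd7 had log2 fold changes of -1.51, -1.37 and -1.15.

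The receptor for adrenomedullin is CALCRL joined to an accessory protein, RAMP2 or RAMP3. Of 7 listed genes of the receptor, accessory and clearance proteins and of the related peptide gene Adm2, 5 were tested and 0 were called by edgeR, DESeq2 or limma-voom. At an unadjusted p under 0.05 there were 2 (40.0%, against 12.0% of all genes). All 5 had positive log2 fold changes, with a median of 0.98. Ramp2 stood at 171, 158 and 128 CPM in M4, M5 and M6, against 98.5, 93.9 and 38.3 CPM in M1, M2 and M3 (log2 fold change 0.99 ± 0.28, edgeR adjusted p = 0.153). Of the exonic bases of Ramp2, 33.4% are shared with the gene model Vps25. Calcrl stood at 574 ± 141 CPM in hypercapnia and 311 ± 162 CPM in room air (0.89 ± 0.35, adjusted p = 0.33), and Gpr182 and Ackr3 had log2 fold changes of 1.03 ± 0.52 and 0.41 ± 0.24. These receptor genes are also expressed by endothelium, and the 18 endothelial markers all had positive log2 fold changes, with a median of 0.88. With the endothelial level as a covariate the log2 fold changes of Calcrl, Ramp2, Gpr182 and Ackr3 were 0.04, 0.32, -0.27 and -0.10.

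Arnt encodes the shared partner of both alpha subunits and lies on chromosome 3 from 95434388 to 95497240 on the plus strand (ENSMUSG00000015522), with no exonic overlap. Arnt stood at 174, 159 and 160 CPM in M4, M5 and M6, against 117, 122 and 109 CPM in M1, M2 and M3. Every hypercapnia library was above every room air library, and the spread within each group was small. The means were 164 ± 8.28 and 116 ± 6.22 CPM (SD, n = 3 each), a log2 fold change of 0.50 ± 0.11 (SE), a ratio of 1.42 with a 95% interval of 1.20 to 1.67. The edgeR adjusted p was 0.0546, so the gene did not pass, and its unadjusted p of 7.05e-04 ranked 167 among all tested genes, where 159 were called. It passed in 7 of 15 other settings, among them DESeq2 (adjusted p = 0.00555), limma-voom (0.0374), robust dispersion (0.0256) and no composition factors (0.024), and its log2 fold change lay between 0.42 and 0.56 in all 15. Those 7 include the fit without a filter and the immediate early covariate, which was added after seeing the data. With 1 library left out, whichever it was, no call was made (adjusted p from 0.12 to 0.202) or with the endothelial level as a covariate (0.42 ± 0.13, adjusted p = 0.132). The genes closest in pattern to Arnt were Deptor, Map3k8 and Sipa1l1, with root mean square differences of 0.042, 0.043 and 0.054 on the log2 scale and log2 fold changes of 0.49, 0.44 and 0.47. Per kilobase, Arnt lay above Hif1a in all hypercapnia libraries, at means of 20.5 and 13.9 CPM per kilobase, while in room air the genes overlapped at means of 14.5 and 16.7.

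**Figure D3:**
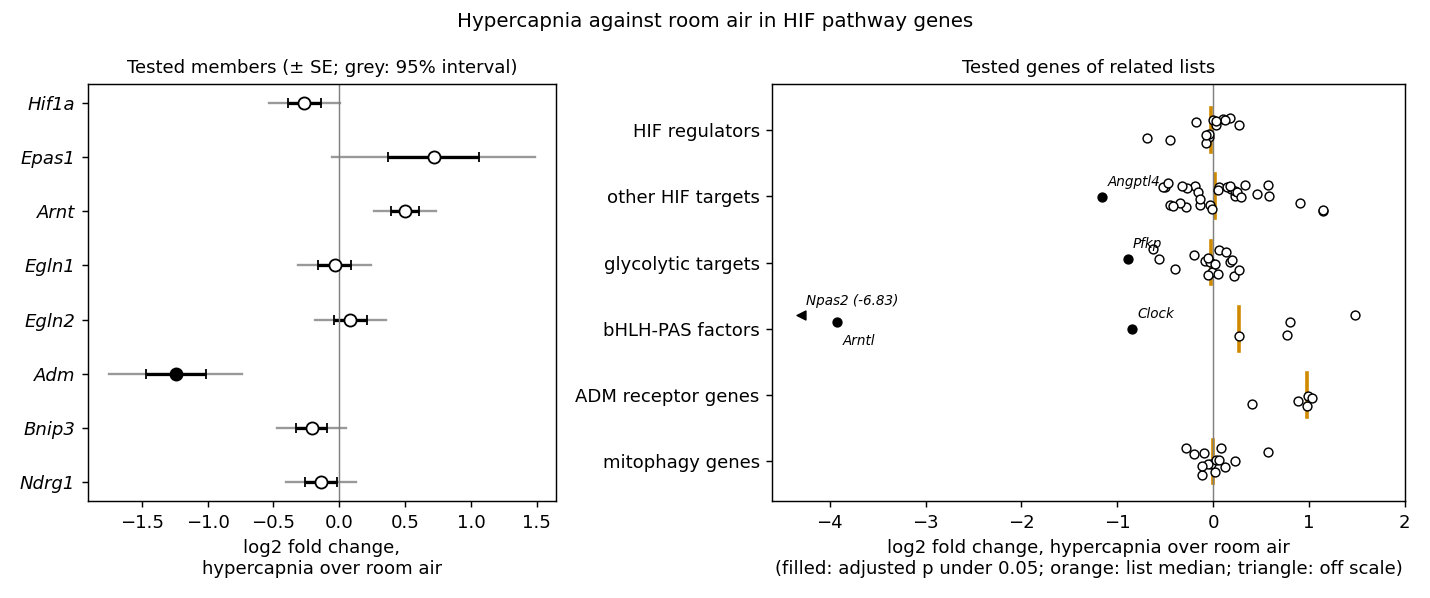
Log2 fold changes of hypercapnia over room air on the horizontal axes, left for the 8 tested members with SE bars and grey 95% intervals, right for the tested genes of 6 related lists with each list's median in orange; filled points have an edgeR adjusted p under 0.05. Among the members Adm at -1.24 is filled and Arnt at 0.50 is open, and the filled points of the lists (Angptl4, Pfkp, Npas2, Arntl and Clock) all lie below 0.

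Hif1a, the oxygen-regulated subunit present in most cells, lies on chromosome 12 from 73901375 to 73947530 (ENSMUSG00000021109), with 8.11% of its exonic bases in other gene models. It stood at 88.4, 83.5 and 74.4 CPM in M4, M5 and M6, against 106, 104 and 86.3 CPM in M1, M2 and M3. The groups overlapped through M4 and M3. The log2 fold change was -0.26 ± 0.12 (ratio 0.833, 95% interval 0.689 to 1.01, edgeR adjusted p = 0.434), and it stayed below 0 and uncalled in all 15 other settings.

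Epas1, the HIF2A gene on chromosome 17 from 86753700 to 86833410 (ENSMUSG00000024140), is strongly expressed in lung endothelium as well as in fibroblasts. Epas1 stood at 1191, 765 and 609 CPM in M4, M5 and M6, against 720, 600 and 240 CPM in M1, M2 and M3. The groups overlapped, since M1 lay above M6, and M3 stood far below the others. The log2 fold change was 0.72 ± 0.35 (ratio 1.64, 95% interval 0.965 to 2.80, edgeR adjusted p = 0.455). Epas1 had the widest interval of the 8 tested members. The order of the 6 libraries by Epas1 was M4, M5, M1, M6, M2 and M3, and by the summed endothelial markers M4, M5, M1, M6, M2 and M3. Epas1 CPM divided by the summed endothelial CPM was 0.269, 0.223 and 0.227 in M4, M5 and M6, against 0.260, 0.259 and 0.334 in M1, M2 and M3. With endothelial marker level as the covariate the log2 fold change turned to -0.14 ± 0.15 (adjusted p = 0.719), and without M3 it was 0.37 and without M4 0.40. Without any filter on low counts edgeR called Epas1 (0.72 ± 0.13, adjusted p = 2.1e-06). The estimate was the same as in the reported fit, and only the SE was smaller. In the fit without a filter Adm and Arnt had nearly the same SE as Epas1 (0.14 each), although the libraries of Epas1 were far more spread. That call therefore takes little account of the spread of Epas1 between libraries. Of the summed Epas1 and Hif1a transcripts per kilobase, Epas1 made up 91.2 ± 1.97% in hypercapnia and 82.8 ± 7.12% in room air (SD, n = 3 each), and the rest was Hif1a. The alpha subunit gene Hif3a, at 1.77 and 1.47 CPM per kilobase in hypercapnia and room air, was left out of this sum.

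**Figure D4:**
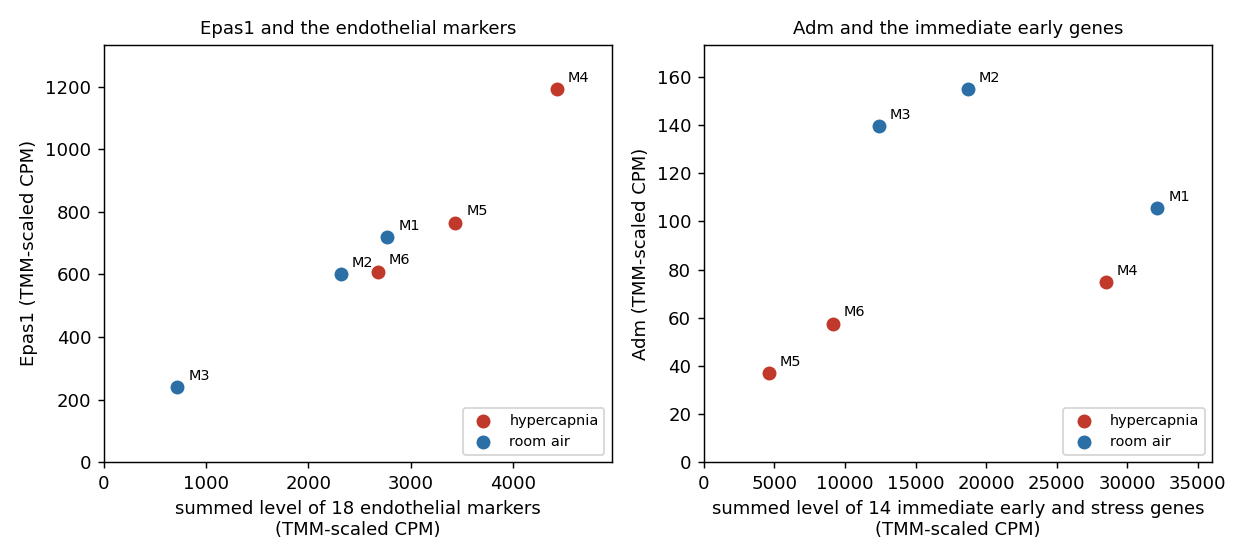
Left, Epas1 against the summed level of 18 endothelial markers, and right, Adm against the summed level of 14 immediate early and stress genes, all in TMM-scaled CPM with axes from 0; each point is a library. Epas1 takes the same order over the 6 libraries as the endothelial sum, while Adm in room air is lowest in M1, where the immediate early sum is highest at 32143 CPM.

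The prolyl hydroxylases EGLN1 (PHD2), EGLN2 (PHD1) and EGLN3 (PHD3) are the oxygen sensors of the system, and Egln3 is itself induced by HIF in many cells. Egln1, on chromosome 8 from 124908587 to 124949324 (ENSMUSG00000031987), stood at 82.6, 67.2 and 67.4 CPM in M4, M5 and M6, against 80.9, 72.3 and 69.4 CPM in M1, M2 and M3. Egln2, on chromosome 7 from 27158658 to 27166802 (ENSMUSG00000058709), stood at 68.5, 68.6 and 75.3 CPM in the hypercapnia libraries, against 66.4, 74.7 and 59.2 CPM in room air. For both genes the libraries of the groups were interleaved. The ratios were 0.976 for Egln1 (95% interval 0.804 to 1.18, edgeR adjusted p = 0.954) and 1.06 for Egln2 (0.878 to 1.28, adjusted p = 0.866). The log2 fold changes, -0.04 for Egln1 and 0.08 for Egln2, changed sign in some settings. Without composition factors that of Egln1 turned to 0.03, and with the endothelial covariate that of Egln2 turned to -0.01. Egln2 made up 55.0 ± 3.68% of the transcripts of the 3 hydroxylase genes per kilobase in hypercapnia and 53.3 ± 3.27% in room air.

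Egln3 (ENSMUSG00000035105, chromosome 12 from 54178981 to 54203860) was near the floor. It had 15, 8 and 23 counts in M4, M5 and M6 and 7, 0 and 8 counts in M1, M2 and M3. M5 at 0.787 CPM lay below M1 and M3 at 0.826 and 0.849 CPM, so the groups overlapped. Summed over libraries there were 46 and 15 counts, a ratio of 2.84 per effective library size (exact 95% interval 1.56 to 5.48, for counting error alone). Fitted without a filter on low counts, edgeR gave 1.46 ± 1.02 on the log2 scale (adjusted p = 0.698). Ankrd37, an ankyrin repeat gene and HIF target on chromosome 8 from 45996902 to 46005707 (ENSMUSG00000050914), was as low, with 7, 12 and 14 counts in M4, M5 and M6 and 9, 3 and 2 counts in M1, M2 and M3. M1 at 1.06 CPM lay above M4 at 0.798 CPM. The summed ratio was 2.18 (1.1 to 4.42, counting error alone), and the fit without a filter gave 1.05 ± 1.15 with an adjusted p of 0.8. Of the exonic bases of Ankrd37, 26.4% are shared with Lrp2bp and Ufsp2 on the other strand, and the strand setting of the counting is not given in the sources used here. For both genes the counting interval lay above 1, but the fit without a filter called neither. In that fit well-counted members had nearly equal SEs (0.14 for Adm, 0.14 for Arnt and 0.15 for Bnip3). Those of the reported fit were 0.23, 0.11 and 0.12. The fit without a filter therefore carries little of a gene's own spread between libraries.

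Bnip3 and Ndrg1 are targets that rise in many hypoxic cells. Bnip3 encodes a mitochondrial receptor for mitophagy, the removal of mitochondria, and lies on chromosome 7 from 138890836 to 138909519 (ENSMUSG00000078566). It stood at 59.5, 61.9 and 66.3 CPM in M4, M5 and M6, against 66.8, 69.7 and 80.5 CPM in M1, M2 and M3. All hypercapnia libraries lay below all room air libraries, although M6 and M1 were nearly equal. The log2 fold change was -0.21 ± 0.12 (ratio 0.865, 95% interval 0.720 to 1.04, edgeR adjusted p = 0.544), and 22.3% of the exonic bases are shared with the opposite-strand model Gm45507. Ndrg1, a stress-responsive differentiation gene on chromosome 15 from 66929318 to 66969640 (ENSMUSG00000005125), stood at 58.0, 67.3 and 71.4 CPM in the hypercapnia libraries, against 75.3, 73.1 and 68.3 CPM in room air. M6 lay above M3, so the groups overlapped. Its log2 fold change was -0.14 ± 0.12 (ratio 0.908, 95% interval 0.756 to 1.09, adjusted p = 0.739), with 8.43% of its exonic bases in other gene models. Neither gene was called in any of the 15 other settings.

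Relatives of these targets gave no call. Of 14 tested mitophagy genes, 0 were called by edgeR, DESeq2 or limma-voom, and 0 had an unadjusted p under 0.05, against 12.0% of all genes. Their median log2 fold change was -0.0033. Bnip3l, the closest relative of Bnip3 and also a HIF target, stood at 104 ± 12.9 CPM in hypercapnia and 89.1 ± 2.91 CPM in room air (SD, n = 3 each, log2 fold change 0.22 ± 0.12, edgeR adjusted p = 0.503). Gabarapl1, an autophagosome protein that binds such receptors, had a log2 fold change of -0.20 ± 0.11, and the mitochondrial receptor gene Fundc1 of -0.29 ± 0.21. The other family members Ndrg2, Ndrg3 and Ndrg4 had log2 fold changes of -0.16 ± 0.11, 0.08 ± 0.18 and 0.64 ± 0.36, and the sign of Ndrg3 turned without M2 (-0.06).

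Among 15 listed regulators of HIF, 14 were tested and 0 were called by edgeR. At an unadjusted p under 0.05 there was 1 (7.14%, against 12.0% of all genes), and DESeq2 and limma-voom each called 1. That gene was Cited2, which encodes a HIF-induced protein that competes with HIF1A for the coactivators CBP and p300. Cited2 stood at 204, 145 and 181 CPM in M4, M5 and M6, against 282, 320 and 253 CPM in M1, M2 and M3. The groups did not overlap. Cited2 differed by -0.69 ± 0.15 on the log2 scale (edgeR adjusted p = 0.0528) and was called lower in 9 of 15 other settings (adjusted p from 3.29e-05 to 0.272). Those 9 include the fit without a filter, where the SE takes little account of a gene's own spread. They also include the immediate early covariate, which was added after seeing the data. Vhl, the recognition subunit of the ligase that removes hydroxylated HIF, stood at 32.6 ± 5.7 and 28.8 ± 4.64 CPM (0.18 ± 0.18), Rbx1, its ring-finger subunit, at 53.4 ± 3.97 and 60.6 ± 1.7 CPM (-0.18 ± 0.12), and Siah2, a ligase for the hydroxylases, at 24.5 ± 12.9 and 33.4 ± 8.57 CPM (-0.45 ± 0.33), each in hypercapnia and room air. The median log2 fold change of the 14 genes was -0.02.

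A longer list of 35 other non-glycolytic HIF targets gave 32 tested genes, of which 1 fell, none rose and 31 did not pass by edgeR. Positive and negative log2 fold changes were equal in number (16 and 16), with a median of 0.02. At an unadjusted p under 0.05 there were 4 higher and 7 lower genes, 34.4% of the list against 12.0% of all genes. The 4 higher genes, named after their values were seen, did not pass (edgeR adjusted p from 0.307 to 0.388). In hypercapnia and room air, Hmox1 averaged 19.3 and 12.9 CPM and Edn1 32.2 and 14.6 CPM. Stc1 averaged 8.06 and 4.29 CPM and Gbe1 60.9 and 49.9 CPM. Among these genes only Stc1 had groups that overlapped. Over the list, the groups did not overlap for 13 of 32 genes (40.6%, against 18.0% of all genes), 5 higher and 8 lower. Edn1, like the summed endothelial markers, was highest in M4 (43.5 CPM) and lowest in M3 (4.99 CPM). The part of endothelial RNA in its level was not tested. The gene of the list that fell was Angptl4, which encodes a secreted inhibitor of lipoprotein lipase. Angptl4 stood at 165, 139 and 126 CPM in M4, M5 and M6, against 295, 281 and 383 CPM in M1, M2 and M3 (log2 fold change -1.16 ± 0.15, edgeR adjusted p = 0.00643). It was called in 14 of 15 other settings and lost without M5 (adjusted p = 0.0558). Ero1l, an oxidase of the endoplasmic reticulum, stood at 43 ± 1.16 and 61 ± 5.14 CPM (-0.51 ± 0.12, adjusted p = 0.0895), and Ccng2, cyclin G2, at 89.3 ± 11.4 and 128 ± 16.7 CPM (-0.52 ± 0.14, adjusted p = 0.115), each in hypercapnia and room air. DESeq2 called 3 genes of the list, all lower (Angptl4, Ccng2 and Ero1l), and limma-voom called 1. Tmem45a had a log2 fold change of -0.42 ± 0.13. Vegfa, the best known HIF target, was chosen after its values were seen and stood at 330 ± 33.1 CPM in hypercapnia and 377 ± 35.7 CPM in room air (-0.19 ± 0.12, edgeR adjusted p = 0.595).

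No glycolytic HIF target was called higher by edgeR, DESeq2 or limma-voom. Of 19 listed genes 18 were tested, 1 fell, none rose and 17 did not pass by edgeR, with a median log2 fold change of -0.02. At an unadjusted p under 0.05 there were 0 higher and 2 lower genes, 11.1% of those tested against 12.0% of all genes. DESeq2 and limma-voom each called the same 1 gene. It was Pfkp, a phosphofructokinase of the committed step of glycolysis, which stood at 34.0, 36.4 and 34.3 CPM in M4, M5 and M6, against 61.6, 67.4 and 65.4 CPM in M1, M2 and M3. The groups were far apart relative to their spread (log2 fold change -0.89 ± 0.12, edgeR adjusted p = 0.00785), and the call was lost without M2 (0.0602). Of its exonic bases 5.58% are shared with Pitrm1. Pfkfb4, which makes an activator of phosphofructokinase, had a log2 fold change of -0.56 ± 0.23, Tpi1 of 0.21 ± 0.11 and Gpi1 of 0.17 ± 0.11. The glucose transporter gene Slc2a1 (-0.09 ± 0.17), the lactate dehydrogenase gene Ldha (0.14 ± 0.13) and Pgk1 (0.02 ± 0.15), all chosen after their values were seen, did not pass (adjusted p from 0.77 to 0.982).

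ARNT, HIF1A and EPAS1 belong to the bHLH-PAS family of transcription factors, and 7 of its 13 other listed genes were tested. The family includes the clock activators, of which Npas2, Arntl and Clock fell (log2 fold changes -6.83 ± 0.61, -3.92 ± 0.50 and -0.84 ± 0.16), and 4 genes did not pass. Over all tested genes 1.22% were called, 0.700% as lower. Npas2 had 2, 0 and 1 counts in M4, M5 and M6, against 80, 172 and 111 counts in M1, M2 and M3, so the size of its fitted fold change depends on the prior count. The call of Arntl was lost without M2 (adjusted p = 0.052), and that of Clock with the endothelial covariate (-0.82 ± 0.20, adjusted p = 0.0633) or without M1 (0.055), M2 (0.183), M3 (0.0672), M5 (0.157) or M6 (0.0961). Clock stood at 62.2, 53.7 and 39.8 CPM in M4, M5 and M6, against 85.4, 91.4 and 102 CPM in M1, M2 and M3, and the groups did not overlap. Hif3a, the remaining alpha subunit gene, stood at 11.9 ± 0.581 CPM in hypercapnia and 9.84 ± 4.25 CPM in room air (SD, n = 3 each, edgeR adjusted p = 0.822). Ahr, the dioxin receptor and another partner of ARNT, stood at 65.4, 65.2 and 47.8 CPM in the hypercapnia libraries, against 43.1, 46.4 and 12.5 CPM in room air, again without overlap. Its log2 fold change was 0.81 ± 0.37 (adjusted p = 0.418) and turned to -0.04 with the endothelial level as a covariate. Arnt2, the paralog of Arnt, stayed at or under 1.38 CPM in every library and was not tested.

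**Figure D5:**
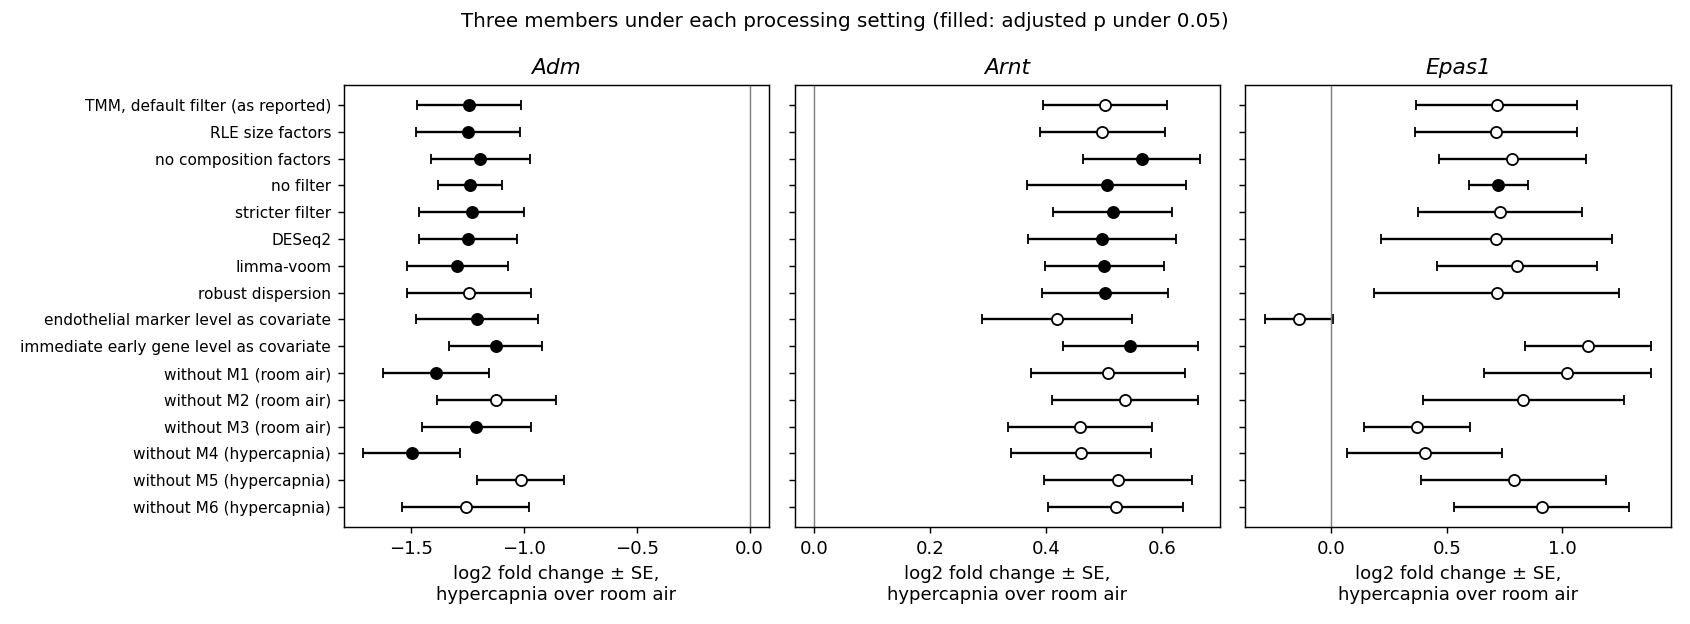
Log2 fold changes ± SE of Adm, Arnt and Epas1 (horizontal axes, hypercapnia over room air) under the reported fit and 15 other settings, with filled points for an adjusted p under 0.05. Adm stays between -1.49 and -1.01, Arnt stays between 0.42 and 0.56, and Epas1 turns to -0.14 with endothelial marker level as the covariate.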

How the data were processed

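RNA-seq read counts per gene were analysed for 6 libraries of sorted mouse lung fibroblasts. The deposited values are raw counts, whole numbers that the authors did not normalize, and the tools are TopHat2 2.1.0, HTSeq, FastQC and bcl2fastq 2.17.1.14 with build mm10, per the submitters' processing notes, which give no roles. The sources used here state neither annotation release nor strand setting nor read filter. Columns name the group but carry numbers found in no sample title, so each was assigned to its group and called by its own number. Symbols, positions and exon lengths (union over all transcripts) came from GENCODE M21 on the same build, with symbols for 42546 IDs.

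All 6 libraries were fitted with edgeR 4.0.16 in R 4.3.3 (quasi-likelihood F-test, two-sided, TMM factors, default filter by group with a minimum count of 10, the group as the only term, 4 residual degrees of freedom), with Benjamini-Hochberg adjustment over all 13005 tested genes and a threshold of 0.05. SE is the log2 fold change divided by the square root of F. The fit was tested on simulated data with dispersions estimated from these counts. It called 22% of the 1.5-fold and 55.1% of the 2-fold changes put in, and 3.91% of its calls were false. A gene that did not pass may therefore still differ by such a fold. The simulation drew each gene on its own, so it held no differences between pools that many genes share, such as the endothelial level. Its share of false calls need not hold for these data. No pair of libraries was a repeat (chi-square per degree of freedom at least 13.3). Alternatives were RLE factors, no composition factors, no filter, at least 5 CPM in 3 libraries, DESeq2 1.42.0, limma-voom 3.58.1, robust dispersion, the endothelial marker level as a covariate and leaving out each library, plus a covariate for the immediate early gene level, which was added once the data had been seen.

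The members and gene lists were chosen with earlier results of these data known, so no adjustment over a list alone is given. Besides the members, the 3 genes closest in pattern to Adm and to Arnt are named, and every called gene of a list. Where fewer than 4 genes of a HIF-related list were called, others follow in order of unadjusted p, up to 4 per list in all. Hmox1, Edn1, Stc1 and Gbe1 were named outside this rule, once their values had been seen. A gene that this rule names is not reported here. An exact permutation test of 3 against 3 libraries cannot go below p = 0.1 and was not used.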

Additional observations from a re-analysis of the deposited data

How the results depend on the processing

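Over the 8 tested members and 15 other settings, 101 values kept their direction and their side of the threshold, 4 lost the call, 8 gained one and 7 changed sign. Counts of called members were 2 without composition factors, with the stricter filter, with DESeq2, with limma-voom and with the immediate early covariate, 3 without a filter, and between 0 and 1 with a library left out (0 without M2, M5 or M6). For the HIF regulators 1 gene (Cited2) was called without composition factors, without a filter, with DESeq2, limma-voom, robust dispersion and either covariate, and 0 to 1 with a library left out (1 without M3 or M4). For the other targets the count was 6 without a filter, 3 with DESeq2, 2 with the immediate early covariate and 0 to 1 with a library left out (0 without M5). With a library left out it was 0 to 1 for the glycolytic targets (0 without M2) and 1 to 3 for the bHLH-PAS genes (1 without M2), and for the adrenomedullin receptor genes 3 without a filter and 1 with the immediate early covariate. Over all genes, 159 calls became 756 without a filter, 443 with DESeq2, 255 with robust dispersion, 242 with the immediate early covariate and 24 to 148 with a library left out (24 without M2, 27 without M5 and 42 without M6). The split of 68 higher and 91 lower genes was 97 and 75 without composition factors, where the median over all genes moved to 0.07, and 467 and 289 without a filter. The log2 fold changes that turned were those of Egln1 (0.0266 without composition factors, 0.0636 with the immediate early covariate and -0.14 to 0.0289 with a library left out), Col1a1 (0.027 without composition factors and -0.119 to 0.0211 with a library left out) and Ndrg3 (-0.0567 to 0.232 with a library left out). With the endothelial covariate those of Epas1 (-0.14), Ahr (-0.0425), Ackr3 (-0.101), Gpr182 (-0.273) and Egln2 (-0.00785) turned. That of Pecam1 (-0.11) turned too, but Pecam1 is itself a marker in that covariate. The cause was not tested. No paired analysis was possible because the labels give no replicate numbers shared by the groups and the columns carry none. For Egln3 and Ankrd37, at under 3 CPM, the spread between the 3 pools of a group was wide relative to the difference.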
